A study of Mus musculus with 20 samples.

Results

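The messages of 9 ligand genes, of 31053 genes counted, were followed in transgenic mice prone to a disease like chronic lymphocytic leukaemia (CLL). The cells were B cells, monocytes and macrophages, neutrophils and dendritic cells. The genes were Cd274 and Pdcd1lg2, which encode the PD-1 ligands PD-L1 and PD-L2, Cd80 and Cd86, which bind CD28 and CTLA-4, Lgals9, Pvr and Tnfrsf14, whose products bind other inhibitory receptors of T cells, and the costimulatory genes Icosl and Cd40. The members were given by name, and cells were assigned to a class by UMI counts of marker genes that are not among the 9. A UMI (unique molecular identifier) marks 1 captured RNA molecule. A B cell had at least 3 UMIs of Cd79a and Cd79b together, 0 of the Cd3 genes and under 20 of Jchain. This definition does not separate leukaemic from other B cells.

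The 20 single-cell RNA-seq libraries came from 13 mice. They comprised spleens of 4 Eµ-TCL1, 4 Eµ-PRMT5/TCL1 and 5 Eµ-PRMT5 mice, and lymph nodes (LN) of 3 of the Eµ-TCL1 and 4 Eµ-PRMT5/TCL1 mice, so that 7 mice gave both tissues. The Eµ-PRMT5 transgene encodes the human form of PRMT5, an arginine methyltransferase. Its VH promoter and the Eµ enhancer of the heavy chain locus drive it in the B lineage, from the immature stage on. Eµ-TCL1 mice carry the TCL1 oncogene in B cells, and Eµ-PRMT5/TCL1 mice carry both transgenes. The labels give the strain as C57BL/6N for every mouse, and tissue was collected at early removal criteria with no treatment named. Ages were not given in the labels. Every mouse carried a B cell transgene, so the comparisons have no transgene-free control. The Eµ-PRMT5 spleen 3 library is titled by a founder number. Sex was read from Xist and Y chromosome messages. Female mice gave 1 of 4 Eµ-TCL1, 3 of 4 Eµ-PRMT5/TCL1 and 4 of 5 Eµ-PRMT5 spleens, so sex was uneven between genotypes.

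A T cell that meets its antigen is steered by a further set of surface contacts. CD28 and ICOS, bound by CD80, CD86 and ICOS ligand, promote activation, whereas PD-1 and CTLA-4 restrain it. CD40 works in the opposite direction, receiving CD40 ligand from helper T cells and signalling to the B cell, macrophage or dendritic cell that carries it through NF-κB. In CLL, leukaemic B cells and the myeloid cells around them display several of these molecules to T cells.

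On GRCm38, Cd274 (ENSMUSG00000016496, chr19:29367455-29388095, + strand) and Pdcd1lg2 (ENSMUSG00000016498, chr19:29410919-29471161, + strand) are neighbours with 22823 bases between them. The other protein-coding members are Cd80 (chr16:38455561-38496335, + strand), Cd86 (chr16:36603869-36666081, − strand), Lgals9 (chr11:78962974-78984946, − strand), Pvr (chr7:19903578-19921160, − strand), Tnfrsf14 (chr4:154921933-154928563, − strand), Icosl (chr10:78069302-78083913, + strand) and Cd40 (chr2:165055627-165072948, + strand). RefSeq promoter sequences (GRCm38.p6) were matched for 6 of 9 members. The 250 bases before the start of the PD-1 ligand genes are shown because both genes were lower in cycling B cells of every spleen tested, as given further on. They lie at chr19:29367188-29367437 and chr19:29410669-29410918, 5′ to 3′ on the + strand, with a match to GGGNNNNNCC, the loose form of a κB motif, in capitals.
Cd274 promoter: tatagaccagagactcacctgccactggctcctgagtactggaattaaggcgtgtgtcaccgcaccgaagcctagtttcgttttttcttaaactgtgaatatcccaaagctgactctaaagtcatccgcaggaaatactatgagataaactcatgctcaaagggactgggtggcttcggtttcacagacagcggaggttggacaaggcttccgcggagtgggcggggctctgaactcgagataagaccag
Pdcd1lg2 promoter: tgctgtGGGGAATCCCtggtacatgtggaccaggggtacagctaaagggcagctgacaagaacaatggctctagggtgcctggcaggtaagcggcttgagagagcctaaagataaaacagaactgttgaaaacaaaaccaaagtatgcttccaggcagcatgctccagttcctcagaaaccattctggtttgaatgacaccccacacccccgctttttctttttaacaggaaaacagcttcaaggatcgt

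On both strands, GGGNNNNNCC was found in 5 of the 6 windows and in 45.8% of 32851 promoters of the same length, and the Cd274 window held none of the motifs searched. The interferon regulatory factor motif GAAANNGAAA, present in 2.98% of promoters, was found in Lgals9 at −55 to −46 and in Tnfrsf14 at −64 to −55. The AP-1 motif TGANTCA, present in 6.75% of promoters, was found in Cd80 at −42 to −36, where it directly follows a κB-type match. The gamma-activated site TTCNNNGAA (7.02% of promoters) and the E-box CACGTG (6.02%) matched none of the 6 windows. Positions count from the RefSeq start, which can differ from the gene ends printed above. The windows of Cd80 (chr16:38458683-38458932) and Tnfrsf14 (chr4:154928078-154928327) lie inside the printed genes, and those of Lgals9 and Icosl overlap them in part. Such matches describe letters in these windows only.

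Libraries held 9348094 to 72440894 UMIs, and 84231 cells were kept, with 195 to 5136 B cells per library. Of these cells, 30890 were B cells, 1594 monocytes or macrophages, 2324 neutrophils, 170 dendritic cells and 27889 T cells, and 21364 met no definition. The B cells expressed Ms4a1 and Pax5, markers of the B lineage, at a median of 560 and 65.6 CPM, the UMIs of a gene per 1000000 UMIs of the class, and neither was at 0 in any of the 20 libraries. Monocytes and macrophages had a median of 17824 CPM of Lyz2, and neutrophils 19236 CPM of Lcn2. Lyz2 was also at 9498 CPM in neutrophils. Ctss was at 1385 CPM in monocytes and macrophages and 21.2 CPM in neutrophils. The neutrophil marker Il1r2 overlapped between them, at 48.5 to 559 CPM in neutrophils and 14.1 to 528 CPM in monocytes and macrophages. In dendritic cells, from 3 libraries, Irf8 was at 1653 CPM against 201 CPM in B cells, but Tcf4 was close (306 and 270 CPM). Any 2 libraries shared at most 75 barcodes, and at most 1.337% of the barcodes of the smaller library. Eµ-PRMT5 spleen 4 stood apart. It was the deepest library, and 74.5% of its B cells carried at least 2 UMIs of cell cycle markers against 0.4 to 22.01% elsewhere. Its B cells held a median of 16712.5 UMIs against 4267 to 11016 elsewhere, and this marker count was not adjusted for depth. In this library 6 of the 9 members had their lowest spleen B cell level. The fitted changes that include it are given without it beside the results that turn on them.

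Cd274 (PD-L1) was detected in B cells of every library. The Eµ-TCL1 spleens had 96.6, 25.6, 34.6 and 23.01 CPM, and the Eµ-PRMT5/TCL1 spleens 70.7, 66.2, 54.2 and 152 CPM. Eµ-PRMT5 spleens had 29.6, 67.5, 41.6, 22.3 and 95.6 CPM. In the LN, Cd274 was at 58.1, 31.8 and 94.3 CPM in Eµ-TCL1 and at 50.5, 92.0, 79.2 and 51.1 CPM in Eµ-PRMT5/TCL1. A single spleen of each TCL1-carrying genotype lay far above its group, and the ranges of all 5 groups overlapped. The mean was 85.9 ± 44.9 CPM (SD, n = 4) in Eµ-PRMT5/TCL1 against 45.0 ± 34.8 CPM (SD, n = 4) in Eµ-TCL1 spleens, a fitted log2 change of 0.76 ± 0.51 (SE). This did not pass the edgeR quasi-likelihood test over all genes (adjusted p = 1), and the change was 1.46 when Eµ-TCL1 spleen 1 was left out and 0.49 when Eµ-PRMT5/TCL1 spleen 4 was.

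Pdcd1lg2 (PD-L2), which binds PD-1 more tightly than PD-L1 and is usually restricted to antigen-presenting cells, ran from 1.84 to 44.1 CPM among spleens, and from 8.18 to 44.1 CPM without Eµ-PRMT5 spleen 4. Eµ-PRMT5 spleen B cells had 14.9, 44.1, 39.0, 1.84 and 28.5 CPM, Eµ-TCL1 8.18, 29.4, 28.8 and 17.5 CPM, and Eµ-PRMT5/TCL1 11.96, 15.4, 12.4 and 21.4 CPM. The lowest value was that of Eµ-PRMT5 spleen 4, and the Eµ-PRMT5/TCL1 libraries were the least spread. LN values ran from 9.57 to 26.1 CPM over both genotypes.

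**Figure D1:**
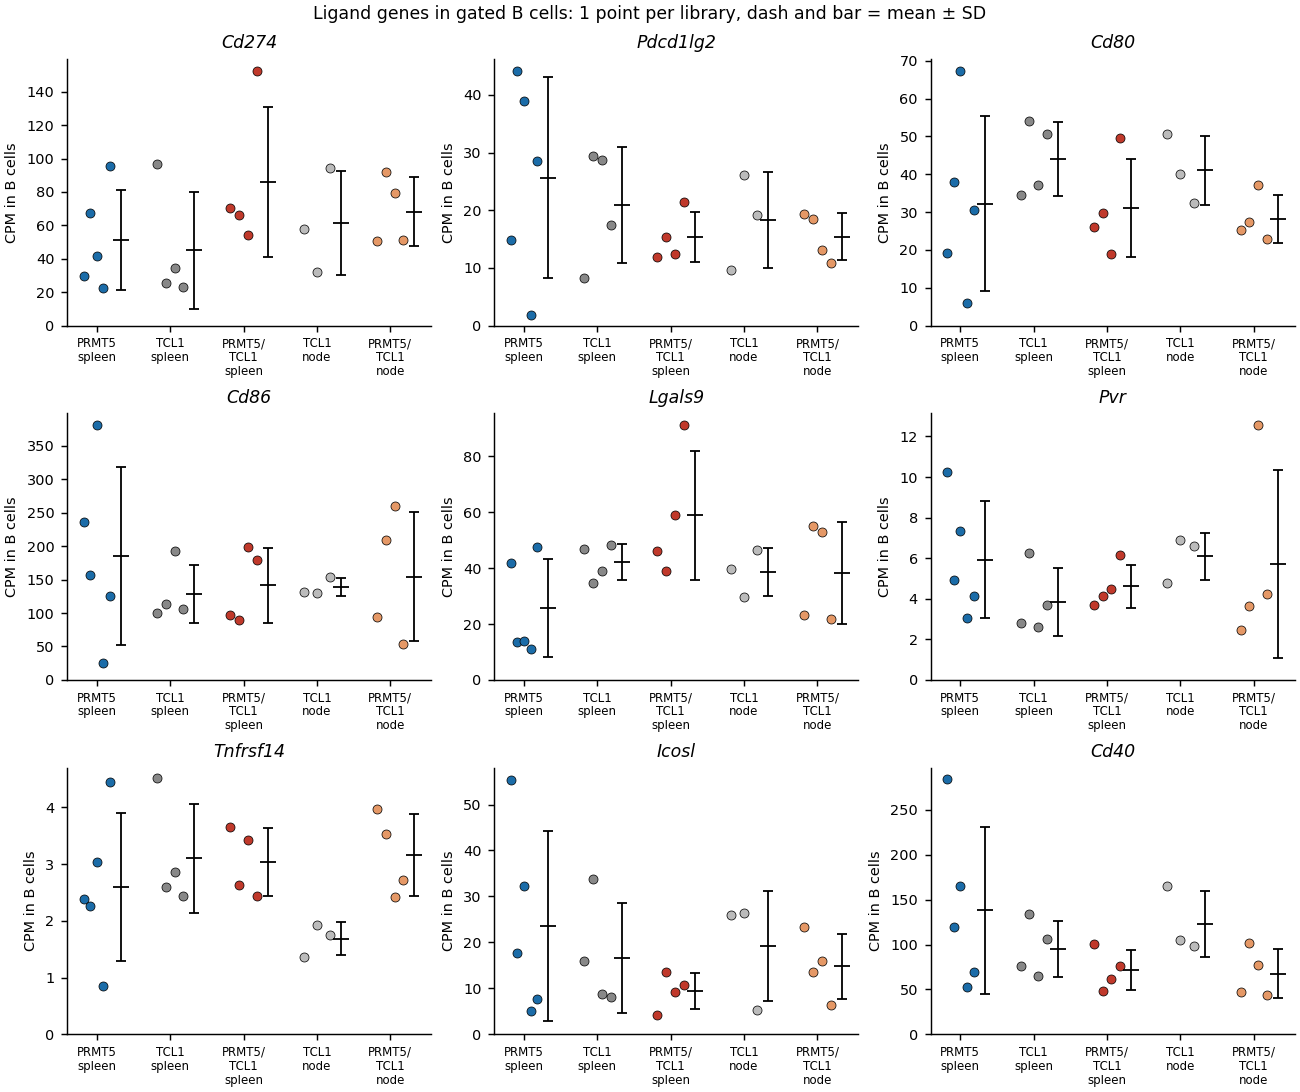
Each of the 9 panels shows 1 ligand gene in B cells, with CPM on the vertical axis (from 0) and the 5 groups on the horizontal axis. Points are libraries, and the dash and bar give the mean ± SD. In the order of group means, the ranges of neighbouring groups overlap for every gene, although those of Tnfrsf14 in the LN (1.37 to 1.93 CPM in Eµ-TCL1 and 2.42 to 3.97 CPM in Eµ-PRMT5/TCL1) do not overlap each other, and Cd274 lies at 23.01 to 96.6 CPM in Eµ-TCL1 and 54.2 to 152 CPM in Eµ-PRMT5/TCL1 spleens.

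The CD28 ligand Cd86 was at 101, 113, 193 and 107 CPM in Eµ-TCL1 and at 96.8, 90.3, 198 and 179 CPM in Eµ-PRMT5/TCL1 spleen B cells. In Eµ-PRMT5 spleens it ranged from 24.8 to 380.4 CPM around a median of 156 CPM, the widest spread of the 3 genotypes. Its partner Cd80, which binds CTLA-4 more strongly, was at 34.4, 54.0, 37.1 and 50.5 CPM in Eµ-TCL1 and at 26.2, 29.7, 18.96 and 49.5 CPM in Eµ-PRMT5/TCL1 spleens. Most Eµ-PRMT5/TCL1 spleens thus lay below the Eµ-TCL1 range, but the groups overlapped, and the fitted change of −0.65 ± 0.45 (log2, SE) did not pass the test (edgeR, adjusted p = 1).

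Among the ligands of other inhibitory receptors, Lgals9, which encodes galectin-9, a ligand of TIM-3, was at 41.9, 13.6, 13.9, 11.2 and 47.5 CPM in Eµ-PRMT5 spleen B cells. It was at 47.0, 34.7, 39.0 and 48.4 CPM in Eµ-TCL1 and at 46.1, 39.1, 59.2 and 91.2 CPM in Eµ-PRMT5/TCL1 spleens. A cluster of 3 Eµ-PRMT5 libraries, replicates 2 to 4, lay below every other spleen, and the other Eµ-PRMT5 libraries lay within the range of both further groups. The fitted change in Eµ-PRMT5/TCL1 against Eµ-PRMT5 was 1.16 ± 0.41 (log2, SE), with an unadjusted p of 0.0134 in the edgeR fit and an adjusted p of 0.480. Without Eµ-PRMT5 spleen 4 it was 1.01 ± 0.41 (edgeR adjusted p = 0.232).

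Pvr, the poliovirus receptor bound by TIGIT and CD226, and Tnfrsf14, the HVEM receptor bound by BTLA and CD160, were scarce in B cells. Pvr lay between 2.46 and 12.6 CPM in all 20 libraries and Tnfrsf14 between 0.85 and 4.51 CPM. In the LN, Tnfrsf14 was at 1.37, 1.93 and 1.76 CPM in Eµ-TCL1 and at 3.97, 3.52, 2.42 and 2.73 CPM in Eµ-PRMT5/TCL1, from 49 and 102 UMIs in all. These ranges did not overlap, as was true of 6.29% of all genes tested, and the change of 0.90 ± 0.41 (log2, SE) did not pass the edgeR test (adjusted p = 0.741). It was 0.35 ± 0.38 when B cells with Cd3 UMIs were allowed.

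The costimulatory gene Icosl, the ligand of ICOS on follicular helper T cells, was at 55.4, 17.7, 32.2, 5.17 and 7.72 CPM in Eµ-PRMT5 spleen B cells. It was at 15.9, 33.8, 8.78 and 8.19 CPM in Eµ-TCL1 and at 4.12, 13.5, 9.21 and 10.8 CPM in Eµ-PRMT5/TCL1 spleens. Cd40 was at 284, 119.9, 165, 52.4 and 69.7 CPM in Eµ-PRMT5, at 75.7, 134, 65.0 and 106 CPM in Eµ-TCL1 and at 101, 48.1, 61.7 and 76.5 CPM in Eµ-PRMT5/TCL1 spleens. Both genes had their highest level in Eµ-PRMT5 spleen 1, and in both the Eµ-PRMT5/TCL1 range reached below that of Eµ-TCL1. In Eµ-PRMT5/TCL1 against Eµ-PRMT5 spleens the fitted change of Cd40 was −0.90 ± 0.39 (log2, SE, edgeR adjusted p = 0.542) and that of Icosl −1.30 ± 0.63 (edgeR adjusted p = 0.582). Without Eµ-PRMT5 spleen 4 these were −1.07 ± 0.37 and −1.55 ± 0.60 (edgeR adjusted p = 0.185 and 0.214). In the LN, Cd40 was at 165, 105 and 98.4 CPM in Eµ-TCL1 and at 47.5, 101, 77.3 and 44.0 CPM in Eµ-PRMT5/TCL1, a change of −0.75 ± 0.32 (log2, SE, edgeR adjusted p = 0.732).

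Over all 9 members, 0 passed the edgeR test in any genotype comparison of B cells, where a call is an adjusted p under 0.05. Among all genes, 0.00866% were called for Eµ-PRMT5/TCL1 against Eµ-TCL1 and 0.026% for Eµ-PRMT5 against Eµ-TCL1 in spleen, 0% for Eµ-PRMT5/TCL1 against Eµ-PRMT5 in spleen and 0% in the LN for Eµ-PRMT5/TCL1 against Eµ-TCL1. The 0.026% are 3 genes, and this number rested on single libraries, at 318 genes without Eµ-PRMT5 spleen 4 and 69 without Eµ-PRMT5 spleen 5, with 0 members called in either case. At an unadjusted p under 0.05, the respective numbers of genes were 520, 1973, 1009 and 735, and DESeq2 called 21, 679, 112 and 63 genes. DESeq2 also called 0 members in each. These comparisons share samples, so their values are not independent of each other. In counts simulated for the spleen genotype comparisons, 42% of genes changed by 2-fold were recovered, so a change of that size could be missed there. That simulation gave every gene the same fixed spread and changed only better-expressed genes, above the levels of Pvr and Tnfrsf14. Recovery at the spread of the members was not tested and may be lower. No simulation was made for the LN. No gene of the other-ligand, NF-κB response or interferon response lists was called in B cells in these comparisons.

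In the 7 mice with both tissues, LN and spleen B cells were compared within each mouse, and 0 members were called beside 0.00911% of all genes (1230 at an unadjusted p under 0.05, and 272 called by DESeq2). Cd274 was higher in the LN of 4 of 7 mice, with a fitted change of 0.12 ± 0.35 (log2, SE). Lgals9 was lower in the LN in 6 of 7 mice, at 55.2 against 46.1 CPM in the exception and at 23.1 against 91.2 CPM in the mouse of Eµ-PRMT5/TCL1 spleen 4. Its change of −0.41 ± 0.21 (log2, SE) did not pass the edgeR test (adjusted p = 0.518) and was −0.20 ± 0.14 without that mouse. The change from spleen to LN was also compared between genotypes, and 0 of 10971 genes, the members among them, were called (edgeR adjusted p = 1 for each member).

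**Figure D2:**
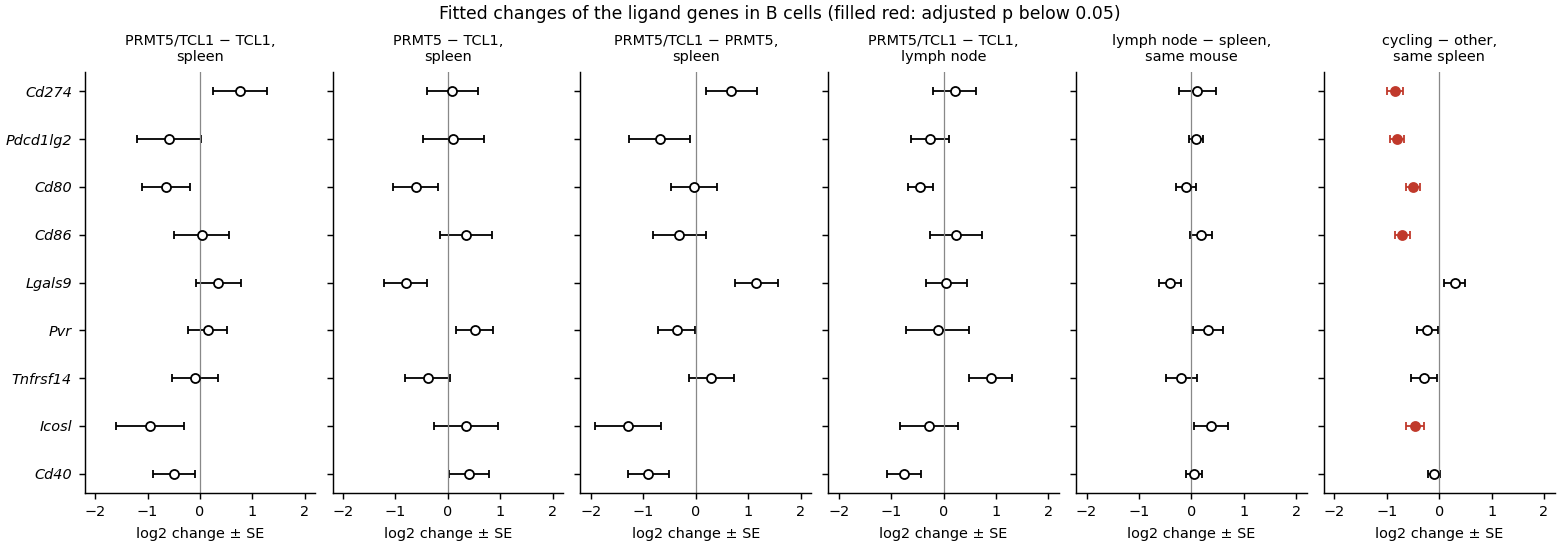
Each panel is 1 comparison within B cells, with the fitted log2 change on the horizontal axis and the 9 ligand genes as rows. Points and bars are the change ± SE, filled red where the adjusted p is below 0.05. In the genotype and tissue panels every point is open, and in the panel of cycling against other cells Cd274, Pdcd1lg2, Cd80, Cd86 and Icosl are red and below 0.

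Members were then compared between cell classes, where 6 of 8 tested were called in monocytes and macrophages beside 63.1% of all genes, and 7 of 7 in neutrophils beside 73.7%. Most genes of any kind thus differed between these classes. In spleen, monocytes and macrophages were compared with B cells of the same library in 12 spleens and neutrophils in 11. In neutrophils, Cd86 averaged 4.30 CPM against 160.2 CPM in B cells. The ranges did not overlap, as was true of 32.7% of all genes tested. Its fitted change was −4.27 ± 0.37 (log2, SE, edgeR adjusted p = 1.98e-08). Cd40 was lower too, at −4.45 ± 0.65 (edgeR adjusted p = 1.03e-05). It was at 0 UMIs in 6 of the 11 neutrophil samples, and the size of its change depended on the method, at −6.50 ± 0.91 with DESeq2, where Cd86 was at −4.65 ± 0.41. Cd274 was lower in neutrophils of all 11 spleens, averaging 11.9 against 59.9 CPM, a change of −1.60 ± 0.34 (edgeR adjusted p = 0.000444). Cd80 was also lower, with a change of −1.54 ± 0.38 (adjusted p = 0.00163 in the edgeR test).

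Other members had the reverse order. Lgals9 was higher in neutrophils of 11 of 11 spleens, where it was at 94.2, 96.1, 143 and 85.6 CPM in the Eµ-PRMT5, 67.0, 71.8 and 88.2 CPM in the Eµ-TCL1 and 125, 60.9, 61.3 and 227 CPM in the Eµ-PRMT5/TCL1 spleens. Its mean was 102 CPM against 41.0 CPM in B cells (log2 change 2.14 ± 0.29, edgeR adjusted p = 3.84e-06). Tnfrsf14 rose by 1.62 ± 0.30 on the log2 scale, higher in 10 of 11 spleens, from 98 UMIs in all neutrophils. Icosl rose by 1.22 ± 0.25 in the fit although the mean CPM was close, at 18.8 and 16.5. The fit scales the classes to each other, and with library sizes alone the change of Icosl was 0.41 and no longer called. Those of Lgals9 (1.37) and Tnfrsf14 (0.80) were smaller in that setting but still called. Those of Cd274 (−2.41) and Cd80 (−2.36) were larger. Pdcd1lg2 and Pvr had only 13 and 4 UMIs in neutrophils, against 2252 and 605 in the B cells, and were below the count filter.

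Thus 4 members were called lower and 3 higher of the 7 tested in neutrophils. Across all genes 73.7% were called, 3006 higher and 3686 lower, with a median change of −0.17 (log2). The split moved with the method. DESeq2, which also differs in its model of the spread and its test, called 2523 of 7109 genes higher (35.5%) around a median of −0.42, and edgeR with library sizes alone, where the scaling is the only change, 1670 of 7602 (21.97%) around −0.97, against 44.9% higher in the fit reported. Cd86, Cd40, Cd274 and Cd80 remained lower and Lgals9 and Tnfrsf14 higher in each of these fits. Without Eµ-PRMT5 spleen 4 all 7 tested were still called, with changes of −4.78 for Cd86, −4.93 for Cd40, −1.95 for Cd274, −1.98 for Cd80, 1.94 for Lgals9, 1.51 for Tnfrsf14 and 1.10 for Icosl (log2).

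Monocytes and macrophages differed from B cells less. Lgals9 was higher in 11 of 12 spleens, with a change of 1.05 ± 0.26 (log2, SE, edgeR adjusted p = 0.00236), and Pvr in 11 of 12, with 1.02 ± 0.20 (edgeR adjusted p = 0.00041). Pdcd1lg2 was lower, with −2.34 ± 0.41 (edgeR adjusted p = 0.000114), and Cd80 fell by 0.90 (SE 0.26). Cd86 averaged 91.8 CPM against 154 CPM in all spleen B cells and fell by 0.65 in the fit (SE 0.24, edgeR adjusted p = 0.0273), a call that was lost in 8 of 18 alternatives. The changes of Icosl (−0.55 ± 0.29) and Cd40 (−0.92 ± 0.43) did not pass the edgeR test. Cd40 was called lower by DESeq2 in the same spleens (−1.08 ± 0.39, DESeq2 adjusted p = 0.0111). The edgeR fit called it without Eµ-PRMT5 spleen 4 (−1.08, edgeR adjusted p = 0.0357). Without that spleen the changes of Lgals9 (0.89), Pvr (1.04), Pdcd1lg2 (−2.60), Cd80 (−0.95) and Cd86 (−0.76) were still called, and that of Icosl (−0.58) was not. Tnfrsf14 was below the count filter. In all, 4 members were lower and 2 higher of the 8 tested, beside 63.1% of all genes called (2315 higher, 3489 lower, median −0.19).

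The call of Cd274 between B cells and monocytes depended on single libraries. Monocytes and macrophages had 8.38, 24.7, 13.2, 153 and 21.7 CPM in the Eµ-PRMT5, 42.8, 23.9 and 3.15 CPM in the Eµ-TCL1 and 28.7, 39.0, 48.5 and 136 CPM in the Eµ-PRMT5/TCL1 spleens. Only in Eµ-PRMT5 spleen 4, the library with the low B cell level, was the myeloid value the higher one. The change of −0.83 ± 0.34 (log2, SE, edgeR adjusted p = 0.0438) became −1.05 ± 0.21 without that spleen (adjusted p = 0.000367), and was not called in 15 of 18 alternatives, with adjusted p up to 0.452 over all of them. The same spleens, Eµ-PRMT5 4 and Eµ-PRMT5/TCL1 4, had the highest Cd40 in monocytes and macrophages, at 135 and 234 CPM against 14.1 to 90.0 CPM in the others.

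**Figure D3:**
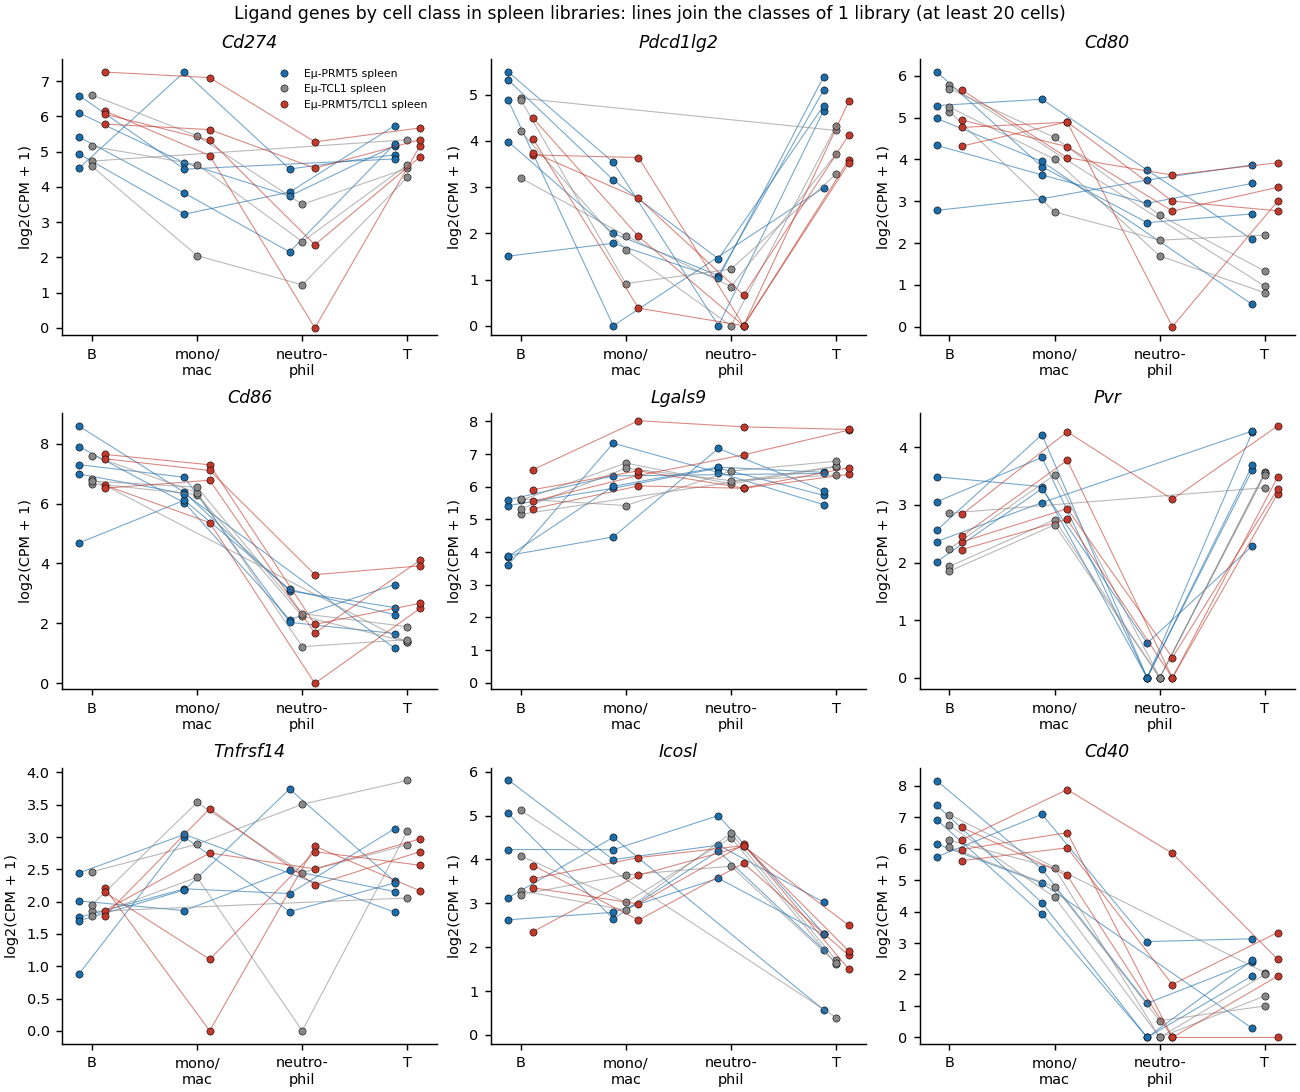
Panels give log2(CPM + 1) of each ligand gene in spleen by cell class (B, monocyte/macrophage, neutrophil and T), coloured by genotype. Points are libraries with at least 20 cells of the class, and lines join the classes of 1 library. Cd86 and Cd40 drop from B cells to neutrophils, while Lgals9 rises in all 11 spleens with both.

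T cells were set beside these classes as a reference. Cd86 was at 5.30 CPM and Cd40 at 3.4 CPM in spleen T cells, or a median of 2.54% and 2.41% of the B cell level, whereas Cd274 and Pdcd1lg2 reached 68.6% and 71.5% of it. Messages of the B cell genes Ms4a1 and Pax5 were at a median of 0.171% of the B cell level in T cells, 0.0409% in monocytes and macrophages and 0.188% in neutrophils (at most 0.700%). At least 1 UMI of Cd86 was seen in a median of 50% of B cells, 45.4% of monocytes and macrophages, 2.13% of neutrophils and 1.84% of T cells. With each cell thinned to 1000 UMIs the shares were 11.7%, 8.53%, 0.388% and 0.333%. Neutrophils thus had a Cd86 share close to that of T cells, at median depths of 6751 and 5115 UMIs per cell. T cells were not shown to be an empty background for it. Relative to B cells, their Cd86 lay above their Ms4a1 and Pax5 in 13 of 13 spleens. These cells were chosen with 0 UMIs of Cd79a and Cd79b, which holds B cell messages low. Lyz2 was at a median of 108 CPM in T cells over all 20 libraries. Whether Cd86 in T cells was their own or came from other cells was not tested. For Cd274 the shares were 29.6% of B cells, 19.1% of monocytes and macrophages, 5.23% of neutrophils and 15.8% of T cells. With cells thinned they were 5.77%, 2.87%, 1.27% and 3.00%, so no order of monocytes and T cells is read from them.

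Among the 4 classes with replicate libraries, dendritic cells left out, and ordered by mean level in spleen, the B cell was the highest class for Cd274, Pdcd1lg2, Cd80, Cd86 and Cd40, the neutrophil for Lgals9 and Icosl, and the T cell for Pvr and Tnfrsf14. The means cover different sets of spleens, 13 for B and T cells, 12 for monocytes and 11 for neutrophils. For Lgals9 neutrophils (102 CPM) and T cells (101 CPM) were too close to be ordered. The ranges of neighbouring classes in these orders overlapped for every member, except for Cd86 between monocytes (91.8 CPM) and T cells (5.30 CPM). The share of all genes with such a gap between these classes is not given.

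Genotype comparisons of myeloid cells also called 0 members. There the share of all genes called was 0% in both genotype comparisons of monocytes and macrophages (217 genes at an unadjusted p under 0.05 for Eµ-PRMT5/TCL1 against Eµ-TCL1, 350 for Eµ-PRMT5 against Eµ-TCL1) and 0% in both of neutrophils (179 and 326 genes). DESeq2 called 5 genes, none a member, in neutrophils of Eµ-PRMT5 against Eµ-TCL1. Cd40 in monocytes and macrophages differed by 1.73 ± 0.72 (log2, SE) in Eµ-PRMT5/TCL1 spleens relative to Eµ-TCL1 (edgeR unadjusted p = 0.0310, adjusted p = 1). Cd274 in the same cells differed by 1.24 ± 0.91 between Eµ-PRMT5 and Eµ-TCL1 and by −0.90 ± 0.71 without Eµ-PRMT5 spleen 4, so its direction rested on that library. Cd40 (0.99 and −0.18 without it) and Lgals9 (0.06 and −0.66) also changed sign there, and Cd274 in neutrophils went from 0.93 to 0.22, with no call in either case.

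Dendritic cells were too few for a test, with at least 20 cells in only 3 libraries, and were summed over spleens, with 95% Poisson intervals that cover counting error only. In the 73 conventional dendritic cells, Cd86 was at 172 CPM (144 to 204), Cd40 at 82.7 CPM (63.7 to 106), Icosl at 69.8 CPM (52.4 to 91.0) and Cd274 at 33.6 CPM (21.9 to 49.2). In the 51 plasmacytoid dendritic cells, specialised producers of type I interferon, Lgals9 was at 141 CPM (111 to 176), Cd86 at 20.2 CPM (10.1 to 36.1) and Cd274 at 7.33 CPM (2.00 to 18.8). The conventional cells thus carried more Cd86 and less Lgals9 (32.3 CPM, 20.9 to 47.7) than the plasmacytoid cells in these sums, with no replicate check. The sums draw on mice unequally. Eµ-PRMT5/TCL1 spleen 2 gave 17 of the 51 plasmacytoid but 3 of the 73 conventional cells. Its dendritic cells held 52 of the 102 Lgals9 UMIs in spleen dendritic cells. Over all 124 spleen dendritic cells, Icosl was at 59.1 CPM (46.7 to 73.8). The LN held 46 dendritic cells, 38 of them plasmacytoid.

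Cycling B cells, with at least 2 UMIs of Mki67, Top2a, Cdk1, Ccna2 and Birc5, were compared with the other B cells of the same library in 9 spleens. As a share of UMIs, Cd274 was lower in cycling cells in 9 of 9 spleens. It was at 17.7 CPM in cycling and 50.7 CPM in other cells of Eµ-PRMT5 spleen 4, at 50.1 and 114, 17.03 and 25.9, 33.5 and 34.7, and 17.8 and 23.7 CPM in the Eµ-TCL1 spleens, and at 47.6 and 73.8, 22.3 and 79.7, 39.5 and 56.3, and 119.6 and 170.4 CPM in the Eµ-PRMT5/TCL1 spleens. The gap ranged from slight in Eµ-TCL1 spleen 3 to severalfold in Eµ-PRMT5/TCL1 spleen 2. The means were 40.6 ± 32.3 and 69.9 ± 47.4 CPM (SD, n = 9), and the fitted change was −0.84 ± 0.15 (log2, SE, edgeR adjusted p = 0.000538), or −0.71 without Eµ-PRMT5 spleen 4.

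Other surface ligands moved the same way. Pdcd1lg2 was at 10.5 against 17.5 CPM and lower in 9 of 9 spleens (−0.80 ± 0.13, edgeR adjusted p = 0.000261), and Cd86 at 90.2 against 132 CPM and lower in 8 of 9 (−0.70 ± 0.14, edgeR adjusted p = 0.00103). Cd80 fell by 0.50 and Icosl by 0.47 (log2), each lower in 7 of 9 spleens, the latter call being lost in 9 of 13 alternatives. The changes of Cd40 (−0.10 ± 0.12), Lgals9 (0.30 ± 0.20), Pvr (−0.23 ± 0.19) and Tnfrsf14 (−0.29 ± 0.25) did not pass the test. Lgals9 was called higher without Eµ-PRMT5 spleen 4 (0.44 ± 0.14, edgeR adjusted p = 0.025), and Pdcd1lg2 (−0.75), Cd86 (−0.67), Cd80 (−0.49) and Icosl (−0.48, edgeR adjusted p = 0.0491) were called lower. Members called numbered 5 lower and 0 higher, with a median change of −0.47 over the 9, beside 40.5% of all genes called (1909 higher, 2097 lower, median −0.05). Cycling cells held a median of 2.00 times the UMIs of other cells. CPM is a share of those UMIs, so these falls do not show fewer messages per cell, which was not tested. Each cell was also thinned to 1000 UMIs, which makes the depth equal but still compares shares. Cycling cells were chosen anew on the thinned counts, so the cells in both sets changed as well. Cd274 (−1.30 ± 0.35, edgeR adjusted p = 0.0097) and Cd86 (−1.01 ± 0.27, edgeR adjusted p = 0.0105) were still called, Cd80 was not (−1.12 ± 0.47), and Pdcd1lg2 and Icosl fell below the count filter.

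The LN libraries were left out of this test so that each mouse entered once, and are given as values. In the LN, Cd274 was lower in cycling B cells in 6 of 7 libraries. The exception was Eµ-TCL1 LN 1, at 71.2 CPM in cycling and 54.6 CPM in other cells, from 22 and 63 UMIs. Cd86 and Icosl were lower in 7 of 7 LN libraries, and Pdcd1lg2 and Cd80 in 6 of 7. Lgals9 was lower in 6 of 7 as well, unlike in the spleen fit, where its change was above 0, and Pvr, Tnfrsf14 and Cd40 were lower in 4, 4 and 3 of 7.

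**Figure D4:**
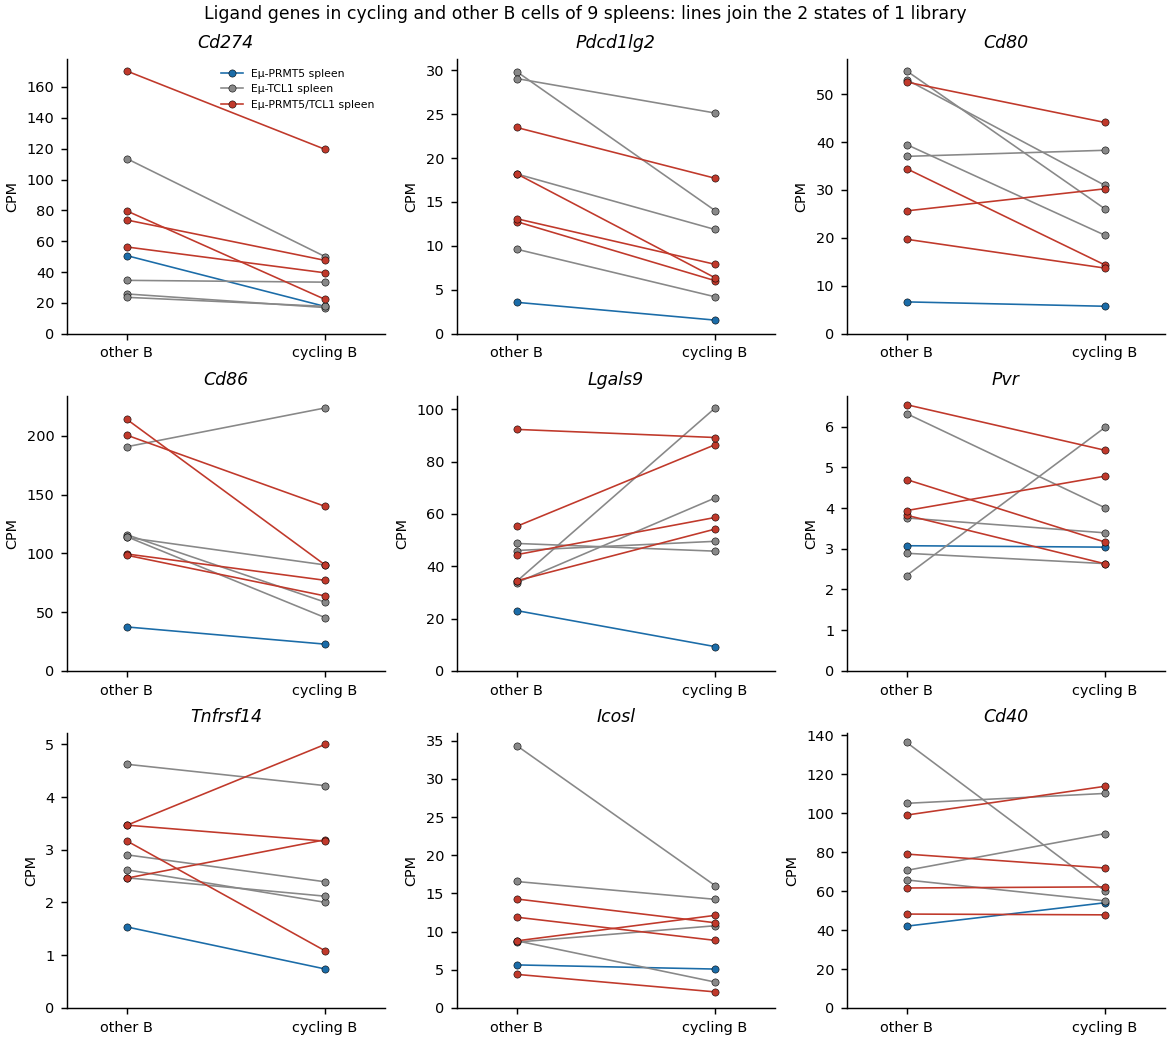
Panels give the CPM of each ligand gene (from 0) in other and in cycling B cells of 9 spleens, coloured by genotype, with a line joining both states of 1 library. Lines for Cd274 and Pdcd1lg2 fall in 9 of 9 spleens and those for Cd86 in 8 of 9.

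The listed genes of the interferon and NF-κB responses were read in the same cells, where 40.5% of all genes were called in either direction. Of 12 tested genes of the interferon response and of PD-L1 regulation, 8 were called lower and 0 higher (median −0.37). They included Cmtm6, which stabilises PD-L1 at the membrane (−0.59, edgeR adjusted p = 2.35e-05), Stat3, a cytokine-activated transcription factor (−0.79, 6.65e-05), Irf1, an interferon-induced activator of Cd274 (−0.43, 0.00136) and the kinase Jak1 (−0.38, 0.00196). Of 19 tested genes of the CD40 and NF-κB response, 8 were lower and 0 higher (median −0.26), among them Cd83, an activation marker of antigen-presenting cells (−0.65, edgeR adjusted p = 0.0018), Birc3, an NF-κB target (−0.46, 0.0006), Traf1 (−0.44, 0.00208) and the NF-κB subunit Rel (−0.42, 0.00429). Of 12 other ligands, Cd200 (−0.78), Vsir (−0.62) and Tnfsf8 (−1.04) were lower and Tnfsf9, which encodes the 4-1BB ligand, was higher (1.42). These counts are descriptions of lists beside that share, and nothing particular to a list was tested.

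The list of further ligands was also read in myeloid cells, where 7 of 10 tested in monocytes and macrophages were called beside 63.1% of all genes, and 10 of 10 in neutrophils beside 73.7%. In monocytes and macrophages 6 were higher than in B cells, including Sirpa, the receptor for CD47 (2.98), Vsir, which encodes the checkpoint molecule VISTA (2.57), and Lgals3 (6.23), and Cd200, a ligand that restrains myeloid cells, was lower (−8.02). In neutrophils 6 were higher, including Vsir (4.13), Ceacam1 (5.14) and Tnfsf14, which encodes the ligand LIGHT of HVEM (6.07), and 4 lower.

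A list of 14 T cell genes, made up of receptors of the members, further receptors such as Lag3, Tnfrsf4 and Tnfrsf9 and the CD40 ligand gene Cd40lg, was read in T cells, where 0 of 14 were called in any of 3 comparisons, beside 0% of all genes for Eµ-PRMT5/TCL1 against Eµ-TCL1 and 0.0362% for Eµ-PRMT5 against Eµ-TCL1 in spleen, and 0% in the LN for Eµ-PRMT5/TCL1 against Eµ-TCL1 (767, 666 and 1515 genes at an unadjusted p under 0.05). At an unadjusted p under 0.05 stood 1 of the 14 for Eµ-PRMT5/TCL1 and 2 for Eµ-PRMT5 in spleen, beside 6.93% and 6.02% of all genes, and 8 in the LN, beside 14.6%. All 8 had LN values above 0 (fitted log2 changes of 1.08 to 2.30 in Eµ-PRMT5/TCL1 relative to Eµ-TCL1), with edgeR adjusted p from 0.116 to 0.283, so none passed the test. They were Ctla4, the inhibitory receptor for CD80 and CD86 (2.12 ± 0.29), Tnfrsf4 (1.48 ± 0.29), Tigit (1.71 ± 0.37), Tnfrsf9 (1.54 ± 0.33), Icos (1.08 ± 0.25), Btla (1.37 ± 0.33), Havcr2, which encodes TIM-3 (2.30 ± 0.74), and Pdcd1, which encodes PD-1 (1.59 ± 0.59). In Eµ-PRMT5/TCL1 LN the SD exceeded the mean for Pdcd1 (91.8 ± 102 CPM) and Havcr2 (11.8 ± 14.4 CPM) but not for the others. Eµ-PRMT5/TCL1 LN 1 held only 63 T cells.

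Across the 20 B cell libraries, the genes whose levels ran most like each member were described by Pearson's r on log2(CPM + 1), over 7597 genes with a mean of at least 10 CPM and with 7 mice entering in both tissues. Cd274 was nearest to Cln8 (r = 0.794) and Mbnl2 (0.783), Cd86 to Btg1 (0.893) and Stat3 (0.866), Lgals9 to AB124611 (0.882) and Icosl to Ms4a4c (0.871) and the NF-κB target Traf1 (0.863). Cd40 was nearest to Tmem115 (0.890), then Ginm1 (0.870) and then the NF-κB subunit gene Relb (0.867). Pdcd1lg2 was nearest to Cnbd2 (0.857), Cd80 to Cdc42se2 (0.854), Pvr to Trp53inp2 (0.851) and Tnfrsf14 to Pik3r1 (0.732). Libraries share their depth and state of cycling across genes, so these values describe the libraries only.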

How the data were processed

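Unselected live cells were profiled by 10x Genomics 3′ v2 single-cell RNA-seq. Raw UMI counts, one matrix per library with all barcodes, were deposited by the authors without normalization. The processing notes name Cell Ranger 2.0.1, Seurat 2.2.1 and GRCm38, and the matrix headers name another Cell Ranger version.

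Here, cells were barcodes of at least 500 UMIs and at least the 99th percentile of the top 3000 barcodes divided by 10, with 200 or more genes and at most 10% mitochondrial UMIs. Of 87773 such barcodes, 3542 doublets were removed, the expected number (0.8% per 1000 cells) by highest Scrublet score, since its automatic threshold marked only 631. Among the cells that met no definition, 10002 had the B cell count of Cd79a and Cd79b but held a Cd3 UMI, and were set aside. More such cells were set aside than kept in Eµ-PRMT5 spleen 4 (1804 against 800) and Eµ-TCL1 spleen 1 (877 against 825). The same held in Eµ-PRMT5/TCL1 spleen 2 (439 against 260), Eµ-TCL1 LN 1 (271 against 195) and Eµ-PRMT5/TCL1 LN 4 (1988 against 1587). The other libraries kept more than they lost. Monocyte/macrophage, neutrophil and dendritic cells needed a sum of at least 3 marker UMIs and more than the other sums, under 3 of Cd79a and Cd79b, 0 Cd3 UMIs and under 10 UMIs of progenitor markers. Neutrophils also needed 20 UMIs of S100a8 and S100a9. T cells needed 2 Cd3 UMIs and 0 of Cd79a and Cd79b. CPM is the UMIs of a gene per 1000000 UMIs of the class in a library.

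UMI counts were summed per library and class (at least 20 cells) and tested over all genes with edgeR 4.0.16 (R 4.3.3), TMM scaling, filterByExpr and the quasi-likelihood F test. Benjamini-Hochberg adjusted p-values under 0.05 were calls. Genotypes shared 1 fit per tissue. Tissues of 1 mouse, and classes or states of 1 library, were paired by mouse or library. Deviations of the tissues of 1 mouse correlated at 0.27 to 0.69 in all 7 pairs, which the labels tie to the same mouse. DESeq2 1.42.0, other scalings, filters, doublet and class settings, thinning, sex as a term, the replicate block and leaving out libraries were alternatives. On simulated counts, 42% of genes changed by 2-fold and 99% by 4-fold were recovered in the B cell genotype fit (11686 genes), and 89% of those changed by 2-fold in the paired class fit (9687 genes). Both simulations gave every gene the same fixed spread and changed only better-expressed genes, so these shares are not those of the members. Genes named are the 9 members and, of each list, up to 6 called genes by adjusted p, and the 8 T cell genes at an unadjusted p under 0.05 in the LN, which were named after their values were seen. The members and lists were chosen with earlier results of these data known. A further planned comparison of states within B cells is not reported here.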

Additional observations from a re-analysis of the deposited data

Results flagged for a closer look

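Values of 1 library lying far from the rest of its group by Dixon's test were found 18 times in 108 groups of a gene and class. Chance gives about 1 in 20, but the count is not read against it, since 2 of the 18 set a single UMI against libraries at 0, where the outcome is fixed, and others rest on few UMIs. In B cells these were Cd274 in Eµ-TCL1 spleen 1 (96.6 CPM, others 23.01 to 34.6), Cd274 in Eµ-PRMT5/TCL1 spleen 4 (152 CPM, others 54.2 to 70.7) and Cd86 in Eµ-TCL1 spleen 3 (193 CPM, others 101 to 113).

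In monocytes and macrophages they were Cd274 (153 CPM, others 8.38 to 24.7) and Cd40 (135 CPM, others 14.1 to 39.5) in Eµ-PRMT5 spleen 4, Cd80 in Eµ-PRMT5 spleen 2 (42.4 CPM from 12 UMIs in 40 cells, others 7.33 to 14.5) and Lgals9 in Eµ-PRMT5/TCL1 spleen 4 (259 CPM, others 64.1 to 88.8).

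In neutrophils the values were Cd40 in Eµ-PRMT5/TCL1 spleen 4 (56.7 CPM from 15 UMIs in 49 cells, others 0 to 2.21) and in Eµ-PRMT5 spleen 4 (7.26 CPM, others 0 to 1.12). Pvr stood out in Eµ-PRMT5/TCL1 spleen 4 (7.57 CPM from 2 UMIs) and in Eµ-PRMT5 spleen 4 (0.519 CPM from 1 UMI), Pdcd1lg2 in Eµ-PRMT5/TCL1 spleen 3 (0.584 CPM from 1 UMI), and Icosl was low in Eµ-PRMT5/TCL1 spleen 2 (14.1 CPM, others 18.8 to 19.3).

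In T cells, Eµ-PRMT5/TCL1 LN 1 had high Cd80 (16.4 CPM from 6 UMIs in 63 cells, others 1.86 to 2.10) and Cd86 (19.2 CPM from 7 UMIs, others 1.26 to 2.52). Tnfrsf14 was high in Eµ-PRMT5 spleen 1 (7.77 CPM, others 2.57 to 3.97), Cd86 in Eµ-TCL1 spleen 4 (2.71 CPM, others 1.58 to 1.75), and Icosl was low in Eµ-TCL1 spleen 2 (0.316 CPM from 1 UMI, others 2.07 to 2.25).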

How the results depend on the processing

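The number of members called stayed within 1.5 times the reported one in 188 of 190 alternatives, but in the genotype and tissue comparisons it was 0 throughout, which says little about stability, and 45 of 190 counts of all genes called moved by more. Of 1507 values of single members, 0 turned from a call in one direction to the other, 38 lost a call and 5 gained one, and 67 that were not called changed sign. For cycling B cells, the 5 members called became 2 with cells thinned to 1000 UMIs and 0 with no replicate block. With no block by library, 1251 genes were called in cycling cells, 865 of them higher (69.1%) against 47.7% with it, and Cd274 in monocytes changed by −0.38 (adjusted p = 0.452). Genotype groups shared only replicate numbers (correlations of −0.14 to 0.25), and with a replicate block 22 genes and 0 members were called in Eµ-PRMT5 against Eµ-TCL1 spleen B cells. Over all alternatives, genes called ran from 1 to 679 in that comparison, where 318 were called without Eµ-PRMT5 spleen 4 and 69 without Eµ-PRMT5 spleen 5, from 0 to 112 in Eµ-PRMT5/TCL1 against Eµ-PRMT5, 0 to 21 for Eµ-PRMT5/TCL1 against Eµ-TCL1 in spleen, 0 to 63 in the LN, 0 to 272 between tissues and 384 to 4039 in cycling cells. The cause was not tested. The relaxed B cell definition and the neutrophil genotype comparisons were chosen after seeing the data. The planned dendritic test was not run, since only 3 libraries held 20 cells. For Tnfrsf14, Pvr and neutrophil Pdcd1lg2, the UMI totals given limit what could be detected.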
